A study of Mus musculus with 36 samples.

Results

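The 6 renin-angiotensin system genes Ren1, Agt, Ace, Agtr1a, Agtr1b and Agtr2 were followed in mouse kidney over the first postnatal week in 2 models of polycystic kidney disease. They were chosen by name as the precursor, the enzymes and the receptors of the pathway, out of 20458 genes with a symbol in the read-count table, and each gene was represented by its RefSeq transcript with the highest mean count. In this system the protease renin (Ren1) cuts angiotensinogen (Agt) to angiotensin I, and angiotensin-converting enzyme (Ace) turns that peptide into angiotensin II. Angiotensin II raises vessel tone and sodium uptake through type 1 receptors, of which mice have a pair (Agtr1a and Agtr1b), and acts on a second type of receptor (Agtr2) that is known for its high expression in the developing kidney. In the kidney, renin is made in granular cells of the afferent arterioles, and angiotensinogen is made in the proximal tubule as well as in the liver.

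The KO mice were Pkd1f/f:HoxB7-Cre or Pkd2f/f:HoxB7-Cre on a C57BL/6 background, and the WT mice were Pkd1f/f or Pkd2f/f without the Cre, so that all groups carried floxed alleles. The loxP sites flank exons 2 to 5 of Pkd1 or exons 3 and 4 of Pkd2, and HoxB7-Cre acts in the collecting duct, whereas RNA was taken from kidney. Collection was 1, 3 or 7 days after birth (P1, P3 and P7), with 3 KO and 3 WT libraries for each model and day, 36 libraries in 12 groups. Fewer cells of a type and less RNA per cell cannot be told apart in such tissue RNA.

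The libraries held 7179152 to 15850818 counted reads each, with a median of 13143336. Markers of proximal tubule (1459 to 5700 CPM, read counts per 1000000 reads, summed over 8 genes) and podocyte (838 to 2218 CPM over 4 genes) were present in all 36. The floxed gene itself passed edgeR's test in its own model only for Pkd2 at P7 (log2 fold change -0.29, SE 0.05, adjusted p = 0.0115), and its log2 fold changes in the other 5 comparisons lay between -0.21 and 0.10. The summed counts of 4 Y-linked genes split the libraries into 18 with these transcripts and 18 nearly without. At P7 in the Pkd1 model they were present in 3 of 3 KO and 0 of 3 WT libraries, so that genotype and sex cannot be told apart there. In the Pkd2 model at P7 they were present in 3 of 3 KO and 2 of 3 WT libraries. Over P1, P3 and P7 they were present in 2, 3 and 0 of 3 Pkd1 WT libraries and in 1, 1 and 2 of 3 Pkd2 WT libraries. The comparisons between days in WT made no adjustment for this.

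A few libraries stood apart. The sum of 9 adrenal markers, among them Cyp11a1, Star and Th, was 1775 CPM in Pkd1 KO replicate 1 at P7, 5614 CPM in Pkd2 WT replicate 2 at P3 and 1456 CPM in Pkd2 KO replicate 3 at P7. The sum of 6 liver markers was 2797 CPM in Pkd2 KO replicate 3 at P3. In the 32 libraries outside these 4, the adrenal sum lay between 8.36 and 54.0 CPM and the liver sum between 28.7 and 333 CPM. Member results that rest on these libraries are given with and without them.

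The type 1 receptor genes are alike enough in sequence for their reads to be at risk of being shared, and a stretch of each is shown for that reason. The coding sequences of Agtr1a and Agtr1b, each 1077 bases without the stop codon, differ at 99 positions and are 90.8% identical. The longest run without a difference is 66 bases, from coding base 75 to 140, and 0 of 978 windows of 100 bases are identical. The stretch from coding base 33 to 182 is printed below from the mm10 (GRCm38) annotation transcripts, 5′ to 3′, with the 9 differing bases in capitals. It lies at chr13:30380986-30381135 on the plus strand in Agtr1a and at chr3:20316259-20316408 on the minus strand in Agtr1b, within a coding exon of each gene.
Agtr1a: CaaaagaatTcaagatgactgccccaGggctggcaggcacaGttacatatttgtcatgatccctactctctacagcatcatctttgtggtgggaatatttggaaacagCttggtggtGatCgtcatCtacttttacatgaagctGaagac
Agtr1b: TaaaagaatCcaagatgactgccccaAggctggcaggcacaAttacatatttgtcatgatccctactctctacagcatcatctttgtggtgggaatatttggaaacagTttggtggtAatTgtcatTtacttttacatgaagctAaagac

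Promoters are shown for Agt and Agtr2, the members that moved most with age in WT kidneys and in opposite directions. The RefSeq sequences (GRCm38.p6) run from 100 bases before the transcription start to 20 bases after it, 5′ to 3′ on the strand of the gene. TATAAA, one form of the TATA box, is in capitals where present. The Agt window is chr8:124569687-124569806 on the minus strand and the Agtr2 window is chrX:21484524-21484643 on the plus strand.
Agt: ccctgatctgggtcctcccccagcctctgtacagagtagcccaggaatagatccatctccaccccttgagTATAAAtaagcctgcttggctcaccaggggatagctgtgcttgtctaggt
Agtr2: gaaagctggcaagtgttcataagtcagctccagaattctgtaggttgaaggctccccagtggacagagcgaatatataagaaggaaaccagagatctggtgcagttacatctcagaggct
The motif TATAAA, searched on both strands, began 30 bases before the start in Agt, 29 before it in Ren1 and 31 before it in Agtr1b. It was also found in one of the Ace promoters, on the opposite strand (read as tttata on the strand of the gene). That match lies within the 100 bases before the start. The Agtr2 window held no match on either strand. Only this exact string was searched, and the Agtr2 window holds the near form tatataag, so a missing match does not show a promoter without a TATA box. Of 32851 RefSeq promoters of 300 bases, 4473 (13.6%) held it on either strand, as did 4 of the 6 promoters found for 5 members. A match is a description of these letters only.

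Renin could not be measured in this table. The transcript of Ren1 (NM_031192, chr1:133350674-133360320) was listed at 0 in 32 of 36 libraries and at 1 in the other 4, and Ren2 (NM_031193), a near-identical gene that C57BL/6 mice are known to lack, was listed at 0 in all 36. The single counts fell in Pkd1 WT at P3 and P7 and in Pkd2 KO at P3 and P7. A count of 0 allows up to 3 counts, or 0.188 to 0.425 CPM depending on the library, as far as counting error goes. HTSeq with default options drops a read that fits more than one feature, and of the transcripts of genes with several rows 57.5% were at 0 in every library, against 15.3% of those of genes with a single row. Ren1 itself has a single row. The part of dropped reads in the Ren1 values was not tested, and the zeros do not show that renin was absent. The 5 other members reached 10 counts in 3 or more of a model's 18 libraries, the minimum for testing, in both models.

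**Figure D1:**
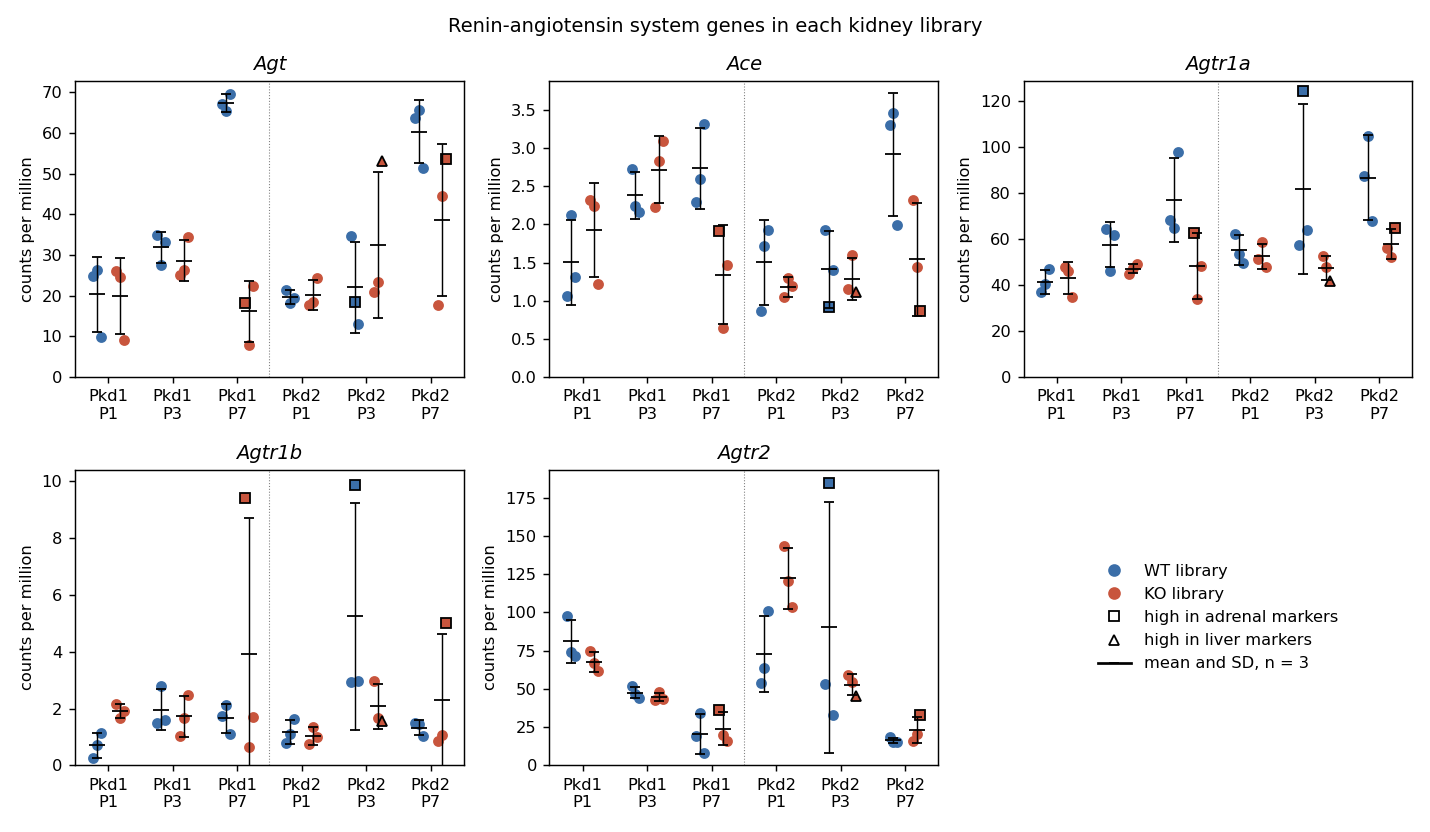
CPM (TMM-scaled, vertical axes from 0) of 5 members in every library by model and day, with WT in blue, KO in red and bars for the mean and SD of 3 libraries (bars are cut at 0). The 3 Pkd1 WT libraries at P7 lie between 65.4 and 69.7 CPM for Agt, above all 3 KO libraries, a triangle marks the library high in liver markers, and squares mark the 3 high in adrenal markers, which hold the 3 highest Agtr1b values.

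Agt, the substrate that all angiotensins derive from (NM_007428, chr8:124556587-124569706), rose with age in WT kidneys of both models and at P7 was lower in the KO of the Pkd1 model than in its WT. In Pkd1 WT kidneys it had 278, 186 and 111 counts at P1 (24.7, 26.4 and 9.73 CPM), 420, 354 and 462 at P3 (34.8, 27.4 and 33.3 CPM) and 966, 957 and 945 at P7 (67.1, 65.4 and 69.7 CPM). In Pkd2 WT kidneys it had 272, 264 and 251 counts at P1 (21.4, 18.1 and 19.3 CPM), 523, 242 and 167 at P3 (34.7, 18.3 and 13.0 CPM) and 849, 949 and 647 at P7 (63.8, 65.7 and 51.5 CPM). Each WT library at P7 lay above each WT library at P1. The rise from P1 to P7 was 1.75 on the log2 scale in Pkd1 WT (SE 0.29, adjusted p = 0.00329) and 1.61 in Pkd2 WT (SE 0.30, adjusted p = 0.00696), each by the quasi-likelihood test of edgeR, with p adjusted by Benjamini-Hochberg over every transcript tested. Across all transcripts tested, 17.9% in Pkd1 and 19.2% in Pkd2 passed this comparison. Between P1 and P3 the log2 differences of 0.67 (adjusted p = 0.4) and 0.18 (adjusted p = 0.803) did not pass.

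In Pkd1 KO kidneys Agt did not show this level at P7. The counts were 336, 337 and 119 at P1 (25.9, 24.4 and 9.07 CPM), 358, 362 and 444 at P3 (25.0, 26.3 and 34.3 CPM) and 227, 99 and 306 at P7 (18.1, 7.84 and 22.5 CPM). At P7 the KO mean was 16.1 ± 7.51 CPM and the WT mean 67.4 ± 2.17 CPM (SD, n = 3 each), and the highest KO library was at 22.5 CPM while the lowest WT library was at 65.4 CPM. The log2 fold change was -2.07 (SE 0.32, adjusted p = 0.0115), and 13.5% of all transcripts passed in this comparison. At P1 and P3 KO and WT libraries overlapped, with log2 fold changes of -0.02 and -0.15 that did not pass. The KO effect differed between P1 and P7 by -2.06 on the log2 scale (SE 0.55, adjusted p = 0.0317 in edgeR's interaction test, passed by 7.75% of transcripts). Without Pkd1 KO replicate 1 at P7, the library high in adrenal markers, the log2 fold change at P7 was -2.16 (adjusted p = 0.0373) and the interaction was -2.14 (adjusted p = 0.0518). Without WT replicate 1 the log2 fold change at P7 was -2.07 with an adjusted p of 0.0506. With all 18 Pkd1 libraries and the presence of Y-linked transcripts as a covariate it was -1.48 (adjusted p = 0.377).

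In Pkd2 KO kidneys the Agt values at P7 spread widely. The counts were 237, 285 and 390 at P1 (17.7, 18.5 and 24.4 CPM), 273, 292 and 717 at P3 (20.9, 23.4 and 53.2 CPM) and 227, 586 and 686 at P7 (17.6, 44.5 and 53.5 CPM). The 717 counts belong to the library high in liver markers. At P7 the highest KO library lay above the lowest WT library, and the log2 fold change of -0.66 (SE 0.34, adjusted p = 0.238) did not pass, in a comparison that 14.1% of transcripts passed. The log2 fold changes were 0.05 at P1 and 0.56 at P3, and the latter was -0.11 without the libraries high in adrenal or liver markers. The difference of the KO effect on Agt between the models at P7, Pkd1 minus Pkd2, was -1.40 on the log2 scale (SE 0.52, adjusted p = 0.213), so the fall in Pkd1 was not shown to differ from the value in Pkd2.

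Markers of other cell types moved at P7 together with Agt. The proximal tubule sum was 1459 to 2655 CPM in Pkd1 KO against 4600 to 5399 CPM in WT, and 3154 to 3292 CPM in Pkd2 KO against 4611 to 5700 CPM in WT. Of the 7 proximal tubule markers tested, 5 fell in Pkd1 and 7 in Pkd2, among them Aqp1, a water channel (log2 fold changes -2.04 and -0.95), and Lrp2, the endocytic receptor megalin (-1.47 and -0.64). Of the 5 collecting duct markers, 3 reached the minimum for testing, and 3 were lower in Pkd1 and 2 in Pkd2. Of the 7 stromal markers, 4 reached it, and 3 were higher in Pkd1 and 4 in Pkd2. These were led by Tagln (1.97 and 1.90) and Acta2 (1.42 and 1.75), actin cytoskeleton genes of smooth muscle and myofibroblasts. Of 5 liver markers tested 1 fell in each model, Ttr, a carrier of thyroid hormone, and of 5 macrophage markers 1 rose in Pkd1 and 3 in Pkd2. Of 4 podocyte markers 1 fell in Pkd1, Podxl (-0.77), and 0 passed in Pkd2. All these counts stand beside the 13.5% of all transcripts in Pkd1 and 14.1% in Pkd2 that passed at P7. Libraries also differed in the balance of long and short transcripts. The median deviation of transcripts of at least 6000 bases minus that of transcripts of at most 1500 bases was -0.60 to -0.49 on the log2 scale in Pkd1 KO at P7, against -0.46, -0.03 and 0.34 in WT, and -0.16 to 0.03 in Pkd2 KO against -0.05 to 0.03. The part of cell composition, sex and this balance in the Agt values was not tested.

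**Figure D2:**
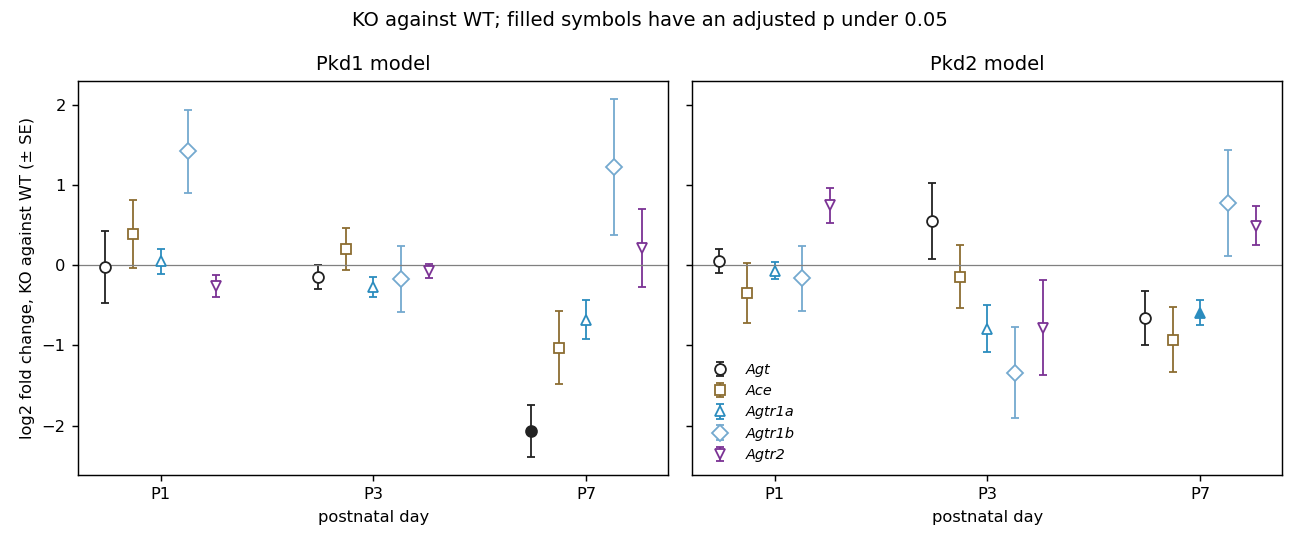
Log2 fold change of KO against WT (vertical axis, points with SE from edgeR) for 5 members at P1, P3 and P7 in the Pkd1 and the Pkd2 model, filled where the adjusted p was under 0.05. Filled points are Agt at -2.07 in Pkd1 and Agtr1a at -0.60 in Pkd2, both at P7.

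Ace encodes the membrane enzyme of endothelium and proximal tubule brush border that forms angiotensin II. Its row (NM_001281819, chr11:105967948-105989964) held few reads, 8 to 50 per library, and the 2 other rows of the gene had a mean count of 5.69 and 0. Reads shared between the isoforms may have been dropped in counting, so that the level of the whole gene is not known. No test passed for Ace in the fits of single comparisons by edgeR. At P7 the counts were 33, 38 and 45 in Pkd1 WT (2.29 to 3.32 CPM) and 24, 8 and 20 in KO (0.633 to 1.91 CPM), which did not overlap. They were 44, 50 and 25 in Pkd2 WT (1.99 to 3.46 CPM) and 30, 19 and 11 in KO (0.858 to 2.32 CPM), which did. The log2 fold changes were -1.03 (SE 0.45, adjusted p = 0.152) in Pkd1 and -0.93 (SE 0.41, adjusted p = 0.17) in Pkd2. In the fit of all 18 Pkd1 libraries together the former was -1.04 with an adjusted p of 0.044. In WT kidneys the log2 differences between P7 and P1 were 0.89 (adjusted p = 0.104) and 0.94 (adjusted p = 0.14), without overlap of the libraries. Of the 7 endothelial markers, 4 were tested at P7, and 0 passed in Pkd1 and 3, all lower, in Pkd2. Of all transcripts, 13.5% and 14.1% passed.

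Agtr1a, the main type 1 receptor of the mouse kidney (NM_177322, chr13:30336356-30382867), was lower in Pkd2 KO than in WT kidneys at P7 and rose with age in Pkd1 WT kidneys. In Pkd2 WT at P7 it had 1158, 1510 and 851 counts (87.0, 105 and 67.7 CPM) and in KO 725, 686 and 829 (56.1, 52.0 and 64.7 CPM). The groups did not overlap, and the nearest libraries were 67.7 and 64.7 CPM. The log2 fold change was -0.60 (SE 0.16, adjusted p = 0.0407). Its adjusted p was 0.0727 with the replicate number as a block and 0.0603 (log2 fold change -0.67) without KO replicate 3, the library high in adrenal markers, and of the 6 fits with a library omitted, 1 kept the call, the one without WT replicate 3. In Pkd1 at P7 the counts were 979, 948 and 1325 in WT (68.0, 64.8 and 97.8 CPM) and 785, 427 and 658 in KO (62.6, 33.8 and 48.3 CPM), again without overlap, with a log2 fold change of -0.68 (SE 0.24, adjusted p = 0.0925) that passed in DESeq2 (adjusted p = 0.0318). The difference between the models was -0.07 (SE 0.32, adjusted p = 0.923).

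At P1 and P3 no test of KO against WT passed for Agtr1a. In Pkd1 it lay between 34.8 and 47.6 CPM in all 6 libraries at P1, and at P3 it was 46.1 to 64.4 CPM in WT and 44.8 to 48.9 CPM in KO. In Pkd2 it lay between 47.6 and 62.2 CPM at P1, and at P3 the WT libraries had 57.3, 124 and 63.5 CPM and the KO libraries 41.7 to 52.3 CPM. The highest of these, 124 CPM or 1635 counts, is the library with the largest adrenal sum. The P3 groups of Pkd2 did not overlap, with a log2 fold change of -0.79 (SE 0.29, adjusted p = 0.94), and of -0.27 (adjusted p = 0.898) without the libraries high in adrenal or liver markers. From P1 to P7 Agtr1a rose by 0.89 on the log2 scale in Pkd1 WT (SE 0.19, adjusted p = 0.00977). In Pkd2 WT the difference was 0.64 (SE 0.27, adjusted p = 0.131), and 0.64 with an adjusted p of 0.0128 once Pkd2 WT replicate 2 at P3, which shares that fit, was left out.

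Agtr1b, the minor type 1 receptor of the kidney and the one prominent in the mouse adrenal gland (NM_175086, chr3:20314473-20367177), was high in the libraries with adrenal transcripts. It had 118 counts (9.41 CPM) in Pkd1 KO replicate 1 at P7, 130 (9.86 CPM) in Pkd2 WT replicate 2 at P3 and 64 (4.99 CPM) in Pkd2 KO replicate 3 at P7. In the other 33 libraries it lay between 0.266 and 2.98 CPM with a median of 1.5 CPM. The same 3 libraries had 73.5 to 175 CPM of Cyp11b2, aldosterone synthase of the adrenal zona glomerulosa, against at most 1.15 CPM elsewhere, and 334 to 995 CPM of Star, the cholesterol carrier of steroid-forming cells, against 7.28 to 15.1 CPM. The part of adrenal tissue in these Agtr1b values was not tested beyond leaving the libraries out.

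**Figure D3:**
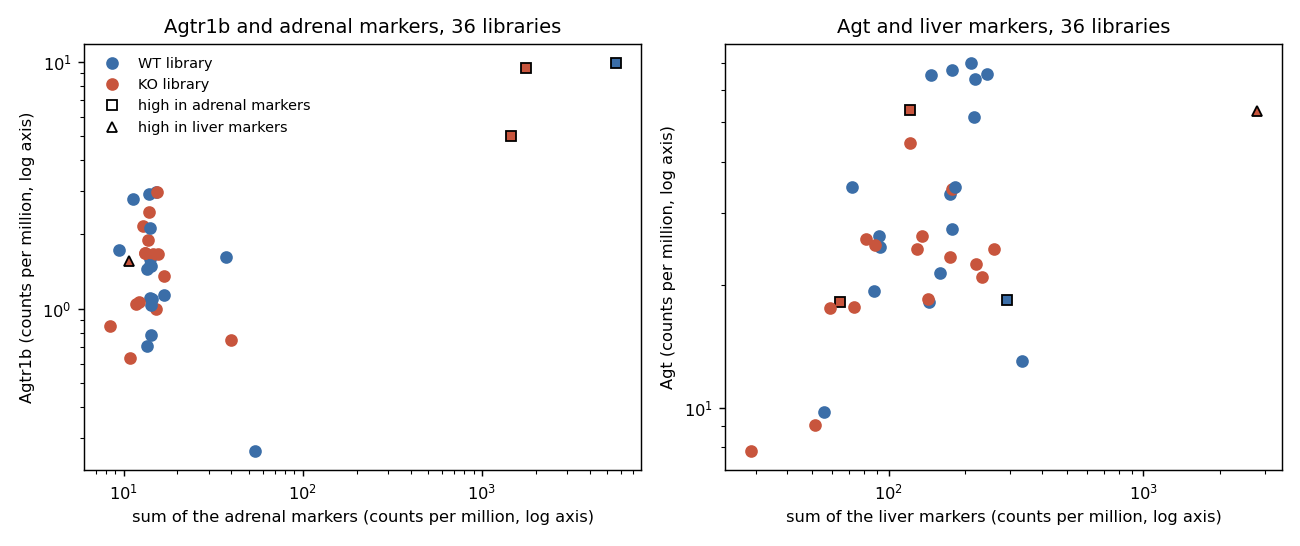
Left, Agtr1b against the sum of 9 adrenal markers, and right, Agt against the sum of 6 liver markers, in CPM on log axes, 1 point per library (36 in all, WT blue, KO red). The 3 libraries with an adrenal sum of 1456 CPM or more have 4.99 to 9.86 CPM of Agtr1b while the other 33 stay at 2.98 CPM or below, and the library with a liver sum of 2797 CPM has 53.2 CPM of Agt.

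Without these libraries the direction of the Agtr1b values at P7 turned. The log2 fold change of KO against WT was 1.23 (SE 0.85, adjusted p = 0.343) in Pkd1 and -0.51 without KO replicate 1, when the KO counts were 8 and 23 against 25, 31 and 15 in WT. In Pkd2 it was 0.77 (SE 0.66, adjusted p = 0.489) and -0.47 without KO replicate 3, with KO counts of 11 and 14 against 20, 21 and 13. At P1 in Pkd1 the KO counts of 28, 23 and 25 lay above the WT counts of 3, 5 and 13, and the log2 fold change of 1.42 (SE 0.52, adjusted p = 1.0) did not pass. At P3 the log2 fold change was -0.17 in Pkd1 and -1.34 in Pkd2, the latter -1.69 to -0.50 when single libraries were omitted and -0.33 without both the adrenal-high and the liver-high library of that day. The P7 to P1 differences in WT, 1.22 and 0.18, did not pass either.

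Agtr2, the type 2 receptor (NM_007429, chrX:21484624-21488833), fell with age in WT kidneys of both models. In Pkd1 WT it had 1098, 522 and 817 counts at P1 (97.5, 74 and 71.6 CPM), 625, 601 and 616 at P3 (51.8, 46.5 and 44.4 CPM) and 280, 500 and 114 at P7 (19.4, 34.2 and 8.41 CPM). In Pkd2 WT it had 686, 926 and 1313 counts at P1 (53.9, 63.6 and 101 CPM), 803, 2432 and 423 at P3 (53.2, 184 and 33.0 CPM) and 245, 217 and 194 at P7 (18.4, 15.0 and 15.4 CPM). The value of 184 CPM is again the library with the largest adrenal sum. The libraries of P1 and P7 did not overlap, and Agtr2 fell by 1.97 on the log2 scale in Pkd1 WT (SE 0.37, adjusted p = 0.00601) and by 2.17 in Pkd2 WT (SE 0.57, adjusted p = 0.0283). Of the 6 fits with a library omitted, 1 kept the Pkd2 call, the one without P1 replicate 1, and the test had an adjusted p of 0.000924 without the high-adrenal library at P3. Nephron progenitor markers moved the same way over these days, from 58.2 to 107 CPM in sum at P1 to 1.95 to 3.75 CPM at P7 in WT, and 3 of 3 tested fell in each model. Their part in the Agtr2 values was not tested.

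No test of KO against WT passed for Agtr2 at any day. At P7 the KO libraries had 36.5, 20.1 and 15.7 CPM in Pkd1 and 16.3, 20.3 and 32.8 CPM in Pkd2, with log2 fold changes of 0.21 (adjusted p = 0.787) and 0.49 (adjusted p = 0.22). The highest value of each model was that of the library high in adrenal markers. In Pkd2 at P1 the KO counts of 1920, 1854 and 1656 (143, 120 and 104 CPM) all lay above the WT counts given above, yet the log2 fold change of 0.75 (SE 0.22, adjusted p = 0.854) was one of 708 with an unadjusted p under 0.05 in a comparison with no call. At P1 in Pkd1 the log2 fold change was -0.26, at P3 it was -0.08 in Pkd1 and -0.78 in Pkd2, and the last became 0.39 without the libraries high in adrenal or liver markers.

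Over the members as a group, calls were few outside P7. In edgeR's test of KO against WT, 0 of 5 members passed at P1 and at P3 in each model, and the share of all transcripts that passed was 0.0% in Pkd1 and 0.0% in Pkd2 at P1, 0.00798% in Pkd1 and 0.0% in Pkd2 at P3. At an unadjusted p under 0.05 there were 1 and 0 members in Pkd1 (of 157 and 1748 transcripts) and 1 and 1 in Pkd2 (of 708 and 565), and DESeq2 called 0 members in all 4 comparisons. At P7, 1 of 5 members passed in each model, where 13.5% of all transcripts in Pkd1 and 14.1% in Pkd2 did, and the median log2 fold change of the 5 was -0.68 in Pkd1 and -0.60 in Pkd2 where that of all transcripts was 0.00 in both. That median is the value of Agtr1a in each model, and Agtr1b and Agtr2 lay above 0 in both. The change of the KO effect from P1 to P7 in Pkd2 passed for 0 members by edgeR or DESeq2, 0 at an unadjusted p under 0.05, and for 1.3% of transcripts. The difference between the models at P7 passed for 0 members and 0.0% of transcripts in edgeR, with 1 member and 2130 transcripts at an unadjusted p under 0.05, and for 0 members and 406 transcripts in DESeq2.

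The WT kidneys of both models were compared at each day. At P1, P3 and P7 none of the 5 members passed between Pkd1 WT and Pkd2 WT, where 0.0243%, 0.113% and 0.0243% of transcripts did, with 1, 1 and 0 members at an unadjusted p under 0.05 and 0 by DESeq2. From P1 to P3 in WT, 0 members passed in edgeR, where 0.12% of transcripts in Pkd1 and 0.00792% in Pkd2 did, with 3 and 1 members at an unadjusted p under 0.05. DESeq2 called 0 and 1, the latter Agtr1b (log2 difference 2.17, adjusted p = 0.0137), whose P3 group holds the library with the largest adrenal sum. Between P1 and P7 in WT, 3 of 5 members passed in Pkd1, against 17.9% of all transcripts, and 2 of 5 in Pkd2, against 19.2%.

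Per kilobase of transcript, the levels stood in another order at P7 than at P1. In Pkd1 WT at P1 Agtr2 stood at 24.7 ± 4.36 CPM per kb, Agtr1a at 18.8 ± 2.36 and Agt at 10.7 ± 4.84 (SD, n = 3), and at P7 Agt stood at 35.6 ± 1.15, Agtr1a at 34.9 ± 8.27 and Agtr2 at 6.30 ± 3.94. In Pkd2 WT at P1 Agtr1a stood at 25.0 ± 2.94 CPM per kb, Agtr2 at 22.2 ± 7.57 and Agt at 10.4 ± 0.87, and at P7 Agtr1a stood at 39.3 ± 8.39, Agt at 31.9 ± 4.09 and Agtr2 at 4.96 ± 0.561. Agtr1b stayed between 0.328 and 0.770 CPM per kb in these 4 groups. The mean ± SD of Agtr1a and Agtr2 overlapped at P1 in both models, as did that of Agt and Agtr1a at P7. Ren1, with 4 counts in all, and Ace, whose row may lack the reads shared between isoforms, were left out of this order.

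The other genes of the pathway were taken as a list of 23, with 17 tested in Pkd1 and 19 in Pkd2. At P7, 0 rose and 3 fell in Pkd1, with a median log2 fold change of -0.16, and 2 rose and 5 fell in Pkd2, with a median of -0.12, beside 13.5% and 14.1% of all transcripts that passed. Enpep, the aminopeptidase that trims angiotensin II to angiotensin III, fell in both models, from 462 to 583 CPM in Pkd1 WT to 215 to 376 CPM in KO (log2 fold change -0.84, adjusted p = 0.0334) and from 529 to 676 CPM in Pkd2 WT to 349 to 465 CPM in KO (-0.61, adjusted p = 0.0181). Anpep, which acts on angiotensin III and is a brush border enzyme, fell by 0.87 (adjusted p = 0.0163) and by 0.68 (adjusted p = 0.0018) on the log2 scale. Both are expressed in the proximal tubule, whose markers, given above, also fell at P7. The part of cell composition in the Enpep and Anpep values was not tested.

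Downstream of the pathway, Nr3c2, the mineralocorticoid receptor through which aldosterone acts, fell in both models. It had 187, 317 and 84 counts in Pkd1 WT and 20, 32 and 49 in KO (log2 fold change -2.40, SE 0.49, adjusted p = 0.0212), and 191, 199 and 202 in Pkd2 WT and 118, 141 and 126 in KO (-0.58, SE 0.13, adjusted p = 0.0266). The balance of long and short transcripts was -0.03, 0.34 and -0.46 in these Pkd1 WT libraries, in the same order, and -0.60 to -0.49 in KO. The part of this balance in the Nr3c2 values was not tested. Hsd11b2, which keeps cortisol and corticosterone from that receptor, fell in Pkd2 (-0.44, adjusted p = 0.0389) and had -0.72 (adjusted p = 0.0754) in Pkd1. Klk1, tissue kallikrein of the distal nephron, fell in Pkd2 from 378 to 400 CPM in WT to 200 to 233 CPM in KO (-0.87, adjusted p = 0.000458) and had -1.32 (adjusted p = 0.142) in Pkd1. Thop1 and Nln, peptidases that cleave angiotensin I to angiotensin 1-7, rose by 0.38 (adjusted p = 0.0158) and 0.32 (adjusted p = 0.028) in Pkd2 and had 0.20 and -0.04 in Pkd1.

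The remaining pathway genes gave no call at P7. Atp6ap2, the (pro)renin receptor and a part of the proton pump, had log2 fold changes of -0.16 and -0.15. Mas1, the receptor of angiotensin 1-7, had 3 to 14 counts per library at P7 and log2 fold changes of -0.56 and -0.22. Mme, neprilysin, had 0 to 11 counts and -2.89 (adjusted p = 0.108) in Pkd1 and -0.52 in Pkd2. Neprilysin is abundant in the proximal tubule, and its gene has several rows, from which shared reads may likewise have been dropped. The count of 3 in Pkd1 was 0 without KO replicate 1 or without WT replicate 1 and 1 without KO replicate 2. That count was 1 with the replicate block and 0 with Y-linked counts as a covariate, a fit that lost nearly all calls of the comparison. The count of 7 in Pkd2 was 3 without KO replicate 3 or without WT replicate 1 and 4 without KO replicate 1. The 3 calls left without KO replicate 3 were Anpep, Klk1 and Thop1. In WT kidneys from P1 to P7, 3 rose in Pkd1 and 4 rose and 1 fell in Pkd2, with Klk1 (2.90 and 2.72), Hsd11b2 (1.94 and 1.07) and Enpep (0.55 and 0.62) higher in both.

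**Figure D4:**
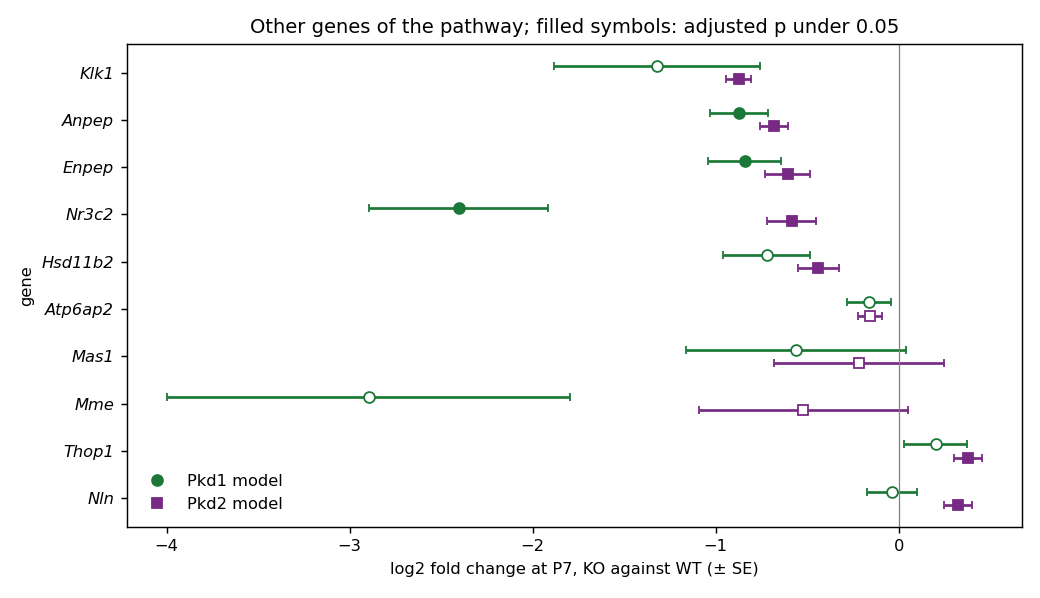
Log2 fold change of KO against WT at P7 (horizontal axis, points with SE from edgeR) for 10 other pathway genes in the Pkd1 (circles) and the Pkd2 model (squares), filled where the adjusted p was under 0.05. Anpep, Enpep and Nr3c2 are below 0 and filled in both models, and Thop1 and Nln are above 0 and filled in Pkd2.

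Genes that mark renin cells or take part in the control of renin were listed beside Ren1, which had no usable count. Of 19, 14 were tested in each model. At P7, 0 rose and 1 fell in Pkd1 and 1 rose and 1 fell in Pkd2, close to or below the 13.5% and 14.1% of all transcripts that passed. Ptgs2, the cyclooxygenase whose prostaglandins stimulate renin release, rose in Pkd2 from 3.32 to 5.81 CPM in WT to 7.49 to 13.6 CPM in KO (log2 fold change 1.11, SE 0.29, adjusted p = 0.0382), and in Pkd1 it was 2.07 to 6.46 CPM in WT and 6.94 to 13.9 CPM in KO. Npr1, the receptor of atrial natriuretic peptide, fell by 0.33 (adjusted p = 0.00821) in Pkd2. Without KO replicate 3, high in adrenal markers, Ptgs2 had 1.30 (adjusted p = 0.0445) and Npr1 -0.33 (adjusted p = 0.0415). Vdr, the vitamin D receptor, which is known to repress renin, fell in Pkd1 from 141 to 168 CPM in WT to 69.2 to 117 CPM in KO (-0.78, SE 0.19, adjusted p = 0.035), and without KO replicate 1, high in adrenal markers, it had -0.75 with an adjusted p of 0.1. Akr1b7, an enzyme that marks renin cells and is abundant in the adrenal cortex, lay at 150 CPM in the library with the largest adrenal sum, at 52.6 and 73.2 CPM in the other 2 and between 16.9 and 53.6 CPM in the other 33.

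The transcripts most like each member were found by the root mean square (RMS) difference of centred log2 values over the 12 group means, among 12343 transcripts tested in both models. For Agt they were Slc25a21 (RMS difference 0.265), Cndp1 (0.28) and Tmigd1 (0.28), and for Ace they were Slc27a2 (0.184), Slc22a12 (0.226) and Aqp7 (0.227). For Agtr1a they were Serpini1 (0.139), Pcsk5 (0.151) and Dkk2 (0.153). For Agtr2 they were Gldc (0.319), Trpm5 (0.334) and Moxd1 (0.336). For Agtr1b, whose profile follows 3 libraries, they were Nat8l (0.304), Nefh (0.35) and Cfhr2 (0.363). The group means share libraries and depth among genes, and no test was made.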

How the data were processed

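RNA-seq of kidney was taken from 36 libraries, 3 KO and 3 WT for each of the Pkd1 and Pkd2 models at P1, P3 and P7. The authors extracted RNA with TRIzol, mapped reads to mm10 with TopHat 2.1.0 (CASAVA 1.8.2 per the submitters' processing notes) and counted them with HTSeq in default mode on RefSeq transcripts, and the deposited values are raw read counts. Beyond these default options, the strand setting of the counting is not given in the sources used here.

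A gene symbol was found for 28978 of 29996 rows by matching their RefSeq identifiers to GRCm38.p6. Transcripts that reached 10 counts in 3 or more of a model's 18 libraries were tested in edgeR by quasi-likelihood with TMM factors, p was adjusted by Benjamini-Hochberg over every transcript tested with a threshold of 0.05, and the SE was the log2 fold change over the square root of F. KO and WT were compared within a model and day, days within the 3 WT groups of a model, and differences of effects as interactions. CPM used TMM factors over all 36 libraries. Log2 profiles used a prior count of 2. The steps were tested on simulated data.

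Counts of 7179152 to 15850818 per library leave the spread between libraries as the main error of well-covered genes. Intervals and floors cover counting error only. Nothing in the sources used here says which mice shared a litter, and p-values measure the spread between these libraries. Named genes were the 6 members, the pathway genes Atp6ap2, Enpep, Mme and Mas1 always (a further gene of this rule is not reported here) and those pathway genes called at P7 in either model, at most 6 genes with the highest mean count per list of renin cell, renin control and cell type genes, and the 3 transcripts most like each member. Ren2, Ptgs2, Akr1b7, Cyp11b2, Nr5a1 and the mast cell proteases fall outside that rule and were chosen after their values were seen. The members and lists were chosen with earlier results of these data known.

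Same-numbered KO and WT libraries deviated together, with correlations of 0.35, 0.209 and 0.524, only in Pkd1 at P1, and correlations elsewhere lay between -0.192 and 0.146. Alternatives were DESeq2, RLE size factors, no low-count filter, the replicate block, counts summed per gene, a minimum change of 2-fold, a joint fit of a model's 18 libraries with and without Y-linked counts as a covariate, each library left out in turn, and, added after seeing the data, leaving out libraries with an adrenal sum over 100 CPM or a liver sum over 1000 CPM. Versions were edgeR 4.0.16 and DESeq2 1.42.0 in R 4.3.3, and matplotlib 3.10.9 with pandas 2.3.3 in Python 3.11.15. The miRNA data of the study were not analysed here.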

Additional observations from a re-analysis of the deposited data

Results flagged for a closer look

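The KO effect on Agt in the Pkd1 model differed between days by edgeR's interaction test. From P1 to P7 it changed by -2.06 on the log2 scale (SE 0.55, adjusted p = 0.0317), with log2 fold changes of -0.02 at P1 and -2.07 at P7, and 3 of 3 KO libraries at P7 lay below every WT library. The interaction lay between -2.40 and -1.71 when each of the 12 libraries of these days was left out, and passed in 5 of these 12 fits, with adjusted p values of 0.00872 to 0.0943. The KO libraries at P1 held no Y-linked counts and the WT libraries did in 2 of 3, while at P7 all 3 KO and no WT libraries held them. The part of sex in this difference cannot be told apart from that of genotype at P7.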

How the results depend on the processing

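Of the log2 values of single members under alternatives other than omitting one library in turn, 480 kept their direction and their side of the threshold, 5 passed it, 6 no longer did and 14 changed sign. In Pkd1 at P7, 1 of 5 members was called, against 2 by DESeq2, 3 with all 18 libraries in one fit, 0 with Y-linked counts as a covariate and 0 to 1 with one library omitted. Over all transcripts the calls moved likewise, from 1686 to 2763, 3882 and 6 in the first 3 of these. In Pkd2 at P7, 1 was called, against 0 with a minimum change of 2-fold, 0 with the replicate block, 0 with all 18 libraries, 0 with Y-linked counts as a covariate, 0 without the libraries high in adrenal or liver markers and 0 to 1 with one library omitted. From P1 to P7 in WT of Pkd2, 2 were called, 1 to 2 with one of the P1 or P7 libraries omitted, and 3 without the high-adrenal library at P3, which shares the fit. From P1 to P3 in WT of Pkd2, 0 were called and 1 by DESeq2. For the change of the KO effect from P1 to P7 in Pkd1, 1 was called, 0 without the libraries high in adrenal or liver markers and 0 to 1 with one library omitted. The causes were not tested. The replicate block changed no other count of members called. The adjusted p of Agt in Pkd1 at P7 ranged from 2.3e-09 (DESeq2) to 0.377 (Y-linked covariate).

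Values that changed sign came from results that passed no test. With Y-linked counts as a covariate these were Ace at -0.13 in Pkd1 at P1, Agtr2 at -0.0091 in Pkd1 at P7 and Ace at 0.093 in Pkd2 at P3. With the replicate block, Agt in WT of Pkd1 against WT of Pkd2 at P1 was -0.069. Without the libraries high in adrenal or liver markers, KO against WT gave Agtr1b -0.51 and Agtr2 -0.22 in Pkd1 at P7, Agt -0.11 and Agtr2 0.39 in Pkd2 at P3 and Agtr1b -0.47 in Pkd2 at P7. P3 against P1 in Pkd2 WT gave Ace 0.16 and Agtr2 -0.74, Agtr1b had -0.31 for the change of the KO effect in Pkd2 and -0.021 for the difference between models, and Agtr2 had 0.12 between the WT groups at P3.

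With one library omitted in turn, 54 values in 28 results changed sign, none of them called. KO against WT ranged as follows in Pkd1: Agt -0.36 to 0.32 and Agtr1a -0.034 to 0.18 at P1, Agtr1b -0.52 to 0.17 at P3, Agtr1b -0.51 to 1.73 and Agtr2 -0.22 to 0.78 at P7. In Pkd2 it was Agt -0.11 to 0.13, Agtr1a -0.15 to 0.028 and Agtr1b -0.40 to 0.14 at P1, Agt -0.0003 to 1.05, Ace -0.38 to 0.15 and Agtr2 -1.18 to 0.28 at P3, and Agtr1b -0.47 to 1.18 at P7. In Pkd2 WT, Agtr1b was -0.035 to 0.47 from P1 to P7, and from P1 to P3 Agt was -0.31 to 0.45, Ace -0.37 to 0.16 and Agtr2 -0.74 to 0.70. The change of the KO effect for Agtr1b was -1.94 to 0.29 in Pkd1 and -0.31 to 1.34 in Pkd2. The difference between the models was -0.44 to 0.33 for Ace, -0.31 to 0.14 for Agtr1a, -1.27 to 1.72 for Agtr1b and -0.70 to 0.29 for Agtr2. Between the WT groups it was Agt -0.19 to 0.38, Ace -0.34 to 0.17 and Agtr2 -0.031 to 0.46 at P1, Agtr2 -1.32 to 0.12 at P3, and Ace -0.31 to 0.027 and Agtr2 -0.24 to 0.71 at P7.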

Other observations

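Chymase (Cma1), a mast cell protease that can form angiotensin II without Ace, and the mast cell proteases Mcpt4 and Cpa3 were chosen after their values were seen. In Pkd2 at P1 Cma1 had 434, 130 and 52 counts in KO and 15, 8 and 12 in WT, Mcpt4 had 167, 34 and 19 in KO and 0 in all 3 WT libraries, and Cpa3 had 391, 144 and 102 in KO and 16, 12 and 27 in WT. The groups did not overlap for these 3 genes, and the share of all transcripts without overlap was not determined. In this comparison edgeR called 0.0% of transcripts, with 708 at an unadjusted p under 0.05. DESeq2 called 33 transcripts, 4 of them among the other pathway genes. KO replicate 1, with 434 Cma1 counts, had 221 counts of the adrenal marker Nr5a1, against 4 to 33 in the other Pkd2 libraries at P1. Th was also highest there, with 39 counts against 0 to 7. Other adrenal markers did not follow, as Cyp21a1 (15 counts), Cyp11b1 (3) and Cyp11a1 (52) were below WT replicate 3 (138, 42 and 73). The adrenal sum of KO replicate 1 was 40.0 CPM, and that of WT replicate 3, with 12 Cma1 counts, was 37.3 CPM. High values were also seen in single libraries at P3, with 339 Cma1 counts in Pkd2 WT replicate 2 and 104 in Pkd2 KO replicate 3, against 8 to 25 in the other 4 Pkd2 libraries of that day. These are the libraries high in adrenal and in liver markers.

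At P7 Cma1 had 1 to 37 counts in Pkd2 and 5 to 25 in Pkd1, and the highest value of each model was again in the KO library high in adrenal markers.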
